A study of Mus musculus with 6 samples.

Results

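Adrenergic receptors are the proteins through which noradrenaline and adrenaline act on neurons, and 8 genes of this family were followed here, chosen by name among the 49568 gene rows of each sample. They were 3 alpha-1 genes (Adra1a, Adra1b and Adra1d), 3 alpha-2 genes (Adra2a, Adra2b and Adra2c) and 2 beta genes (Adrb1 and Adrb3). The samples came from the preBötzinger complex (preBötC), the medullary site that generates the inspiratory rhythm, of mice at postnatal day 2. Each sample held 15 neurons from a separate animal, with 3 samples of Dbx1 neurons and 3 samples of non-Dbx1 neurons. All 6 animals were of the same cross, Dbx1CreERT2; Rosa26tdTomato, and their dams had received tamoxifen during gestation. Cre is driven from the Dbx1 locus, so tdTomato marks cells whose progenitors expressed Dbx1 when tamoxifen was present. Dbx1 neurons were picked by their fluorescence. Non-Dbx1 neurons were neuronal somata without fluorescence, a group defined by the absence of the label and open to any neuron type of the slice.

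The receptor classes differ in the G protein they engage. Alpha-1 receptors couple to proteins of the Gq family, which activate phospholipase C and generally excite neurons. Alpha-2 receptors couple to Gi and Go proteins, which lower cyclic AMP (cAMP), open GIRK potassium channels and reduce transmitter release, and they also serve as autoreceptors on neurons that release noradrenaline. Beta receptors couple to Gs and raise cAMP through adenylyl cyclase. Noradrenaline from brainstem cell groups is a known modulator of the respiratory rhythm.

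The alpha-2 genes held the largest share of adrenergic receptor RPKM (reads per kilobase of exon length, scaled to the reads on genes of each sample) in 5 of the 6 samples. With merged exon lengths they led in 4, and the alpha-1 genes led in Dbx1 replicates 1 and 2. The merged-length count takes the smallest read numbers that the values allow for Adra1a, Adra1b, Adra2a and Adrb1, and multiples of these could change it. Adra2a was the highest member by mean. Adra1b was the steadiest member, with reads in every sample and higher values in all 3 Dbx1 samples than in any non-Dbx1 sample. Of all 17614 tested genes, 5.35% were separated in this direction. Adra2a had no reads in Dbx1 replicate 2 although it was among the higher genes of the other 5 samples. None of the 7 members that could be tested differed between the groups by limma at a false discovery rate (FDR) of 0.1. The study used this threshold with a different test, DESeq2.

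Reads on genes numbered 6464675 to 9432958 per sample, a depth that the spacing of the RPKM values gives. Markers of neurons were high throughout, with a summed RPKM of the 6 listed genes of 1364 to 2202 for the Dbx1 samples against 1326 to 1828 for the non-Dbx1 samples. Slc17a6, the vesicular glutamate transporter gene, measured 47.2 to 128 RPKM in Dbx1 samples and 13.6 to 35.1 RPKM in non-Dbx1 samples. Single non-Dbx1 samples stood apart by markers of other cells. Replicate 1 had a summed RPKM of 14058 for 5 red blood cell genes against 90.3 to 1198 in the other samples, and 279 for 7 oligodendrocyte lineage genes against 18.1 to 70.1. The red blood cell sum also separated the groups, at 90.3 to 507 in Dbx1 samples and at least 733 in non-Dbx1 samples. Replicate 2 had 8679 for 8 genes of catecholaminergic neurons against 7.14 to 55.6, of which Npy alone gave 7800 in replicate 2. Replicate 3 had 157 for 5 genes of cholinergic motor neurons against 3.0 to 27.8. Summed RPKM of 7 endothelial and mural genes was 69.5 in replicate 2 and 0.902 to 5.33 elsewhere, of which Cldn5 alone gave 63.7 in replicate 2, where Rgs5 was at 0. This sum was at most 2.33 in Dbx1 samples and at least 2.34 in non-Dbx1 samples. The oligodendrocyte, astrocyte and microglial sums overlapped between the groups. Astrocyte genes (6 listed) summed to 36.0 to 63.6 for the Dbx1 samples against 44.3 to 89.0 for the non-Dbx1 samples, and microglial genes (6 listed) to 0.202 to 28.8 against 14.6 to 44.4. The microglial gene Tmem119 was at 0 in all 6 samples. Gfap was at 0 in non-Dbx1 replicate 2. Dbh was at 0 in all 3 Dbx1 samples and in non-Dbx1 replicate 3, and the oligodendrocyte gene Mobp in all 3 Dbx1 samples. The defining markers Th, Slc18a3, Cx3cr1, P2ry12, Cldn5, Pecam1 and Flt1 were each at 0 in 1 or more samples.

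**Figure D1:**
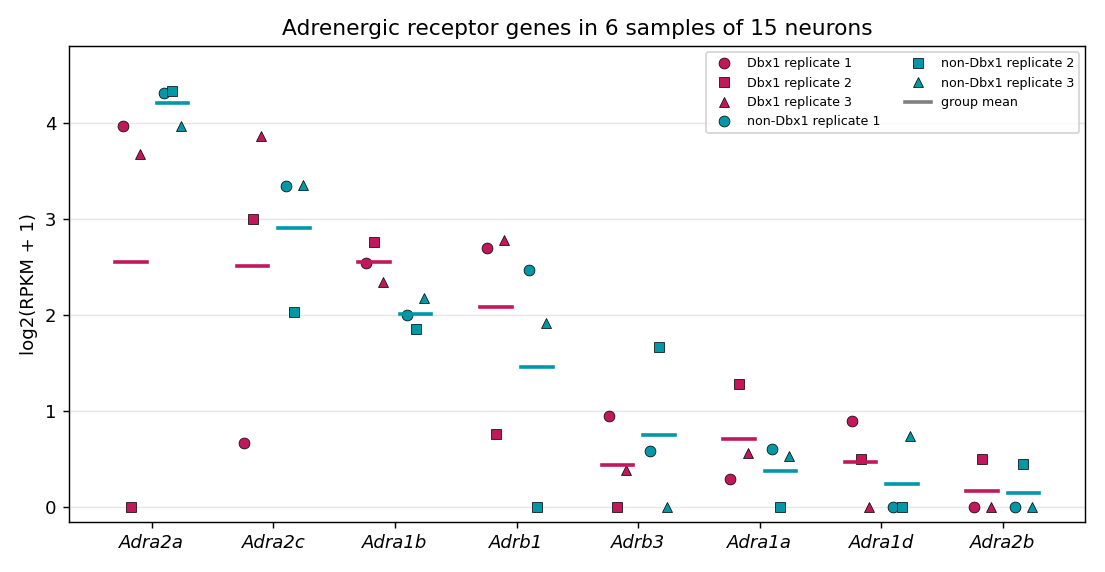
RPKM of the 8 adrenergic receptor genes on a log2(RPKM + 1) axis, ordered by their mean over the 6 samples, with 1 symbol per sample and a line at the mean of each group of 3. Adra2a lies near 4 in 5 samples and at 0 in Dbx1 replicate 2, and for Adra1b alone no Dbx1 symbol falls among the non-Dbx1 symbols.

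Adra2a encodes the alpha-2A receptor, the main alpha-2 subtype of brainstem noradrenergic neurons and their targets. It lies on chromosome 19 from 54044151 to 54048982 of GRCm38, on the plus strand. RPKM measured 14.7, 0 and 11.8 for the Dbx1 samples against 18.8, 19.1 and 14.6 for the non-Dbx1 samples. The 5 samples with reads lay close together, and Dbx1 replicate 2 was the single sample at 0. The value of Dbx1 replicate 1 fell just above that of non-Dbx1 replicate 3, so the groups overlapped.

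The 5 non-zero values of Adra2a rested on at least 311 to 621 reads. In Dbx1 replicate 2, 3 reads would have given at most 0.105 RPKM, a floor that covers counting error only, since reads from amplified cDNA are not independent molecules. Of the 4425 genes with a mean of at least 10 RPKM, a level set after the data were seen, 47 (1.06%) were at 0 in at least 1 sample, and 4 of these, Adra2a among them, were at 0 in Dbx1 replicate 2 and in no other sample, where the other 5 samples had 3 to 12 such genes. In a pool of neurons, fewer cells that express a gene and less RNA per cell cannot be told apart, which holds for all values below.

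Mean RPKM of Adra2a was 8.81 ± 7.76 for the Dbx1 samples against 17.5 ± 2.50 for the non-Dbx1 samples (SD, n = 3). The log2 fold change (L2FC), which is here the difference of the group means of log2(RPKM + 1) and is positive where the Dbx1 samples were higher, measured −1.65 (standard error, SE, 0.937, 95% interval −3.80 to 0.49, limma FDR = 0.924). The exact permutation test gave p = 0.20, and with groups of 3 no two-sided p can be below 0.10. Without Dbx1 replicate 2 the L2FC was −0.38. Without non-Dbx1 replicate 2, the sample with the high catecholaminergic markers, it was −1.59.

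Adra2c encodes the alpha-2C receptor and is a single-exon gene on chromosome 5 from 35278319 to 35281763. RPKM measured 0.584, 7.02 and 13.6 for the Dbx1 samples against 9.16, 3.09 and 9.2 for the non-Dbx1 samples, from 16 to 325 reads. Dbx1 replicates 1 and 3 were the lowest and the highest of all 6 samples, so the spread within the Dbx1 group enclosed the whole non-Dbx1 group. The group means were nearly equal, at 7.05 ± 6.49 and 7.15 ± 3.52 RPKM (SD, n = 3). The L2FC of −0.40 (standard error 0.824, limma FDR = 0.976) turned to 0.52 without Dbx1 replicate 1.

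The highest member was not the same gene in every sample. Adra2a led in Dbx1 replicate 1 and in all 3 non-Dbx1 samples, and Adra2c led in Dbx1 replicates 2 and 3. With merged exon lengths and the smallest read numbers that the values allow, Adra1b led in Dbx1 replicate 2, at 13.7 RPKM. The leaders of the other 5 samples were the same. Adra2c made up 2.12% of the summed RPKM of the 8 genes in Dbx1 replicate 1 and 44.6% in Dbx1 replicate 2, where Adra2a made up 53.1% and 0%.

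Adra2b, which encodes the alpha-2B receptor and lies on chromosome 2 from 127363208 to 127367221, was the lowest member. It had reads only in Dbx1 replicate 2, at 0.418 RPKM, and in non-Dbx1 replicate 2, at 0.368 RPKM. Its recovered count was 25 reads in each of these samples. With reads in 2 of 6 samples it did not pass the filter of the test and has no L2FC.

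Summed over the 3 alpha-2 genes, RPKM was 15.2, 7.43 and 25.3 for the Dbx1 samples against 28, 22.5 and 23.8 for the non-Dbx1 samples. Dbx1 replicate 2 was again the lowest, and Dbx1 replicate 3 lay within the non-Dbx1 range. The means were 16.0 ± 8.97 and 24.8 ± 2.85 (SD, n = 3; exact permutation test, p = 0.30). The difference in log2(sum + 1) was −0.74, and −0.31 without Dbx1 replicate 2.

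Adra1b encodes the alpha-1B receptor and lies on chromosome 11 from 43774606 to 43901210, on the minus strand. RPKM measured 4.82, 5.77 and 4.07 for the Dbx1 samples against 2.99, 2.63 and 3.51 for the non-Dbx1 samples, from at least 155 to 348 reads. The lowest Dbx1 value exceeded the highest non-Dbx1 value. This was 1 of the 7 tested members, where 10.6% of all 17614 tested genes had groups that did not overlap, and 5.35% with the Dbx1 samples higher. A share of this size among 7 genes is not a result about the family.

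The group means of Adra1b were 4.89 ± 0.851 and 3.04 ± 0.443 RPKM (SD, n = 3), a ratio of 1.61. The L2FC was 0.54 (standard error 0.469, 95% interval −0.53 to 1.61, limma FDR = 0.951), and the exact permutation test gave p = 0.10, its smallest value. The L2FC stayed between 0.43 and 0.64 when any 1 sample was left out.

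Adra1a, the alpha-1A receptor gene, lies on chromosome 14 from 66635251 to 66771168. RPKM measured 0.223, 1.43 and 0.475 for the Dbx1 samples against 0.521, 0 and 0.451 for the non-Dbx1 samples. Dbx1 replicate 2 was the highest, with at least 182 reads, and non-Dbx1 replicate 2 had none, where a count of 3 would correspond to at most 0.0207 RPKM. The other 4 samples lay between these values in both groups. L2FC measured 0.33 (SE 0.349, limma FDR = 0.954), and 0.05 without Dbx1 replicate 2.

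For Adra1d, the alpha-1D receptor gene on chromosome 2 from 131545850 to 131562283, the values were low in both groups. RPKM measured 0.861, 0.420 and 0 for the Dbx1 samples against 0, 0 and 0.670 for the non-Dbx1 samples, from 13, 6 and 12 reads where it was above 0. Another gene, Gm14285, shares exon bases with it, and reads were counted without strand. L2FC measured 0.22 (SE 0.317, limma FDR = 0.963), and it ranged from 0.0062, with Dbx1 replicate 1 left out, to 0.47, with non-Dbx1 replicate 3 left out.

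The 3 alpha-1 genes summed to 5.90, 7.62 and 4.55 RPKM for the Dbx1 samples against 3.51, 2.63 and 4.63 RPKM for the non-Dbx1 samples. The lowest Dbx1 value fell just below the highest non-Dbx1 value. The means were 6.02 ± 1.54 and 3.59 ± 1.0 (SD, n = 3), with a difference in log2(sum + 1) of 0.61 (exact permutation test, p = 0.20). Division by median-of-ratios size factors left no overlap between the groups (exact permutation test, p = 0.10). The lowest Dbx1 and the highest non-Dbx1 value were then nearly equal, closer than the spread within either group. Adra1b made up most of the alpha-1 sum in each sample, so this separation largely repeats that of Adra1b.

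Adrb1 encodes the beta-1 receptor and lies on chromosome 19 from 56722199 to 56733113. RPKM measured 5.50, 0.693 and 5.88 for the Dbx1 samples against 4.53, 0 and 2.77 for the non-Dbx1 samples, from at least 13 to 109 reads where it was above 0. Dbx1 replicate 2 and non-Dbx1 replicate 2 were the lowest samples of their groups, the latter without reads, where a count of 3 would correspond to at most 0.141 RPKM. Mean RPKM was 4.03 ± 2.89 and 2.43 ± 2.28 (SD, n = 3). The L2FC of 0.62 (standard error 0.855, 95% interval −1.33 to 2.58, limma FDR = 0.962) turned to −0.11 without non-Dbx1 replicate 2.

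Adrb3, the beta-3 receptor gene, lies on chromosome 8 from 27225776 to 27250616. RPKM measured 0.928, 0 and 0.306 for the Dbx1 samples against 0.505, 2.17 and 0 for the non-Dbx1 samples. Non-Dbx1 replicate 2 was the highest, with 131 reads, and each group had 1 sample without reads. Another gene, Gm45470, shares exon bases with Adrb3. L2FC measured −0.31 (SE 0.469, limma FDR = 0.966), and 0.15 without non-Dbx1 replicate 2.

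The summed beta genes measured 6.43, 0.693 and 6.19 RPKM for the Dbx1 samples against 5.04, 2.17 and 2.77 RPKM for the non-Dbx1 samples (exact permutation test, p = 0.80). The difference in log2(sum + 1) was 0.11. Omitting Dbx1 replicate 1 gave −0.25, omitting Dbx1 replicate 3 gave −0.23 and omitting non-Dbx1 replicate 2 gave −0.09.

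**Figure D2:**
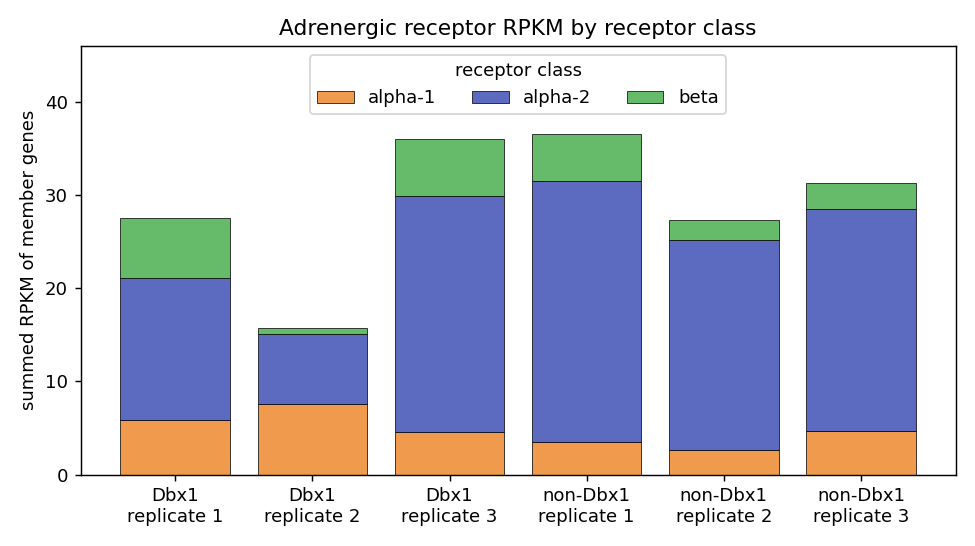
Summed RPKM, with the deposited exon lengths, of the alpha-1, alpha-2 and beta receptor genes in each sample, stacked as bars that start at 0. The alpha-2 part is the largest in every sample but Dbx1 replicate 2, where the alpha-1 part is larger at 7.62 against 7.43 RPKM, and the whole bar of that sample is the shortest, at 15.7 RPKM.

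As a share of the summed RPKM of the 8 genes, the alpha-2 class took 55.3%, 47.2% and 70.2% for the Dbx1 samples against 76.6%, 82.4% and 76.3% for the non-Dbx1 samples. Alpha-1 genes took 21.4%, 48.4% and 12.6% against 9.61%, 9.61% and 14.8%. Beta genes took 23.3%, 4.4% and 17.2% against 13.8%, 7.95% and 8.86%. The alpha-2 share was lower in each Dbx1 sample than in each non-Dbx1 sample, and the other shares overlapped. The shares are a description and were not tested. The total over the 8 genes was 26.5 ± 10.2 RPKM for the Dbx1 samples against 31.7 ± 4.62 for the non-Dbx1 samples (SD, n = 3; exact permutation test, p = 0.50).

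By mean RPKM over the 6 samples, the order of the members was Adra2a at 13.2 ± 7.03, Adra2c at 7.10 ± 4.67, Adra1b at 3.97 ± 1.18, Adrb1 at 3.23 ± 2.49, Adrb3 at 0.652 ± 0.822, Adra1a at 0.516 ± 0.487, Adra1d at 0.325 ± 0.383 and Adra2b at 0.131 ± 0.203 (SD over 6 samples). The first 4 were above the median of 1.09 RPKM over the 27067 genes with reads in any sample. Adra2a stood at percentile 86.8 of these genes and Adra2b at percentile 22.2. Adra1b and Adra2c were the 2 members with reads in all 6 samples, where 44% of the 27067 genes had reads in all 6.

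Pairs of members were compared within samples by an exact sign-change test of the difference in log2(RPKM + 1), for which 6 samples allow no p below 0.031. None of the 7 neighbouring pairs in this order differed beyond its spread, with a lowest adjusted p of 0.154. Over all 28 pairs, 6 reached the smallest p and none had an adjusted p under 0.1, the lowest being 0.125. At this smallest p, adjustment over 28 pairs lets no pair pass on its own, however steady its difference. That none passed is therefore a limit of the test and does not show equal levels. In those 6 pairs the same gene was higher in all 6 samples. Adra1b was above Adra1a, Adra1d, Adra2b and Adrb3, and Adra2c was above Adra1a and Adra2b. For the pair of Adra1b and Adra1a the mean difference was 1.73 ± 0.308 on the log2 scale (SD, n = 6).

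The order depended in part on the exon length behind the RPKM. The length used for Adra1b was 8008 bases or a multiple of it, while its merged exons cover 3382 bases in GENCODE vM21. With merged exon lengths and the smallest read numbers that the values allow, Adra1b had a mean of 9.39 RPKM and ranked 2, between Adra2a at 10.4 and Adra2c at 7.10, and the ranks of the other members were not changed. Between the groups, the length enters the L2FC of a single gene only through the pseudocount, but it weights the genes within a class sum. With merged lengths the alpha-1 sums were 12.7, 16.9 and 10.6 RPKM in Dbx1 samples against 8.10, 6.22 and 9.85 RPKM in non-Dbx1 samples, and these groups did not overlap (exact permutation test, p = 0.10). Adra1b was again most of each alpha-1 sum. The alpha-2 sums were 12.1, 7.84 and 22.8 RPKM against 24.0, 18.8 and 20.7 RPKM. At these smallest read numbers the alpha-1 sum exceeded the alpha-2 sum in Dbx1 replicates 1 and 2. The length used for Adra2a was 3801 bases or a multiple of it, against 4832 merged bases. A multiple would raise the alpha-2 sums of samples with Adra2a reads, as a multiple for Adra1b would raise the alpha-1 sums. The difference of the beta sums was −0.17 on the log2 scale, the opposite sign to that with the deposited lengths.

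**Figure D3:**
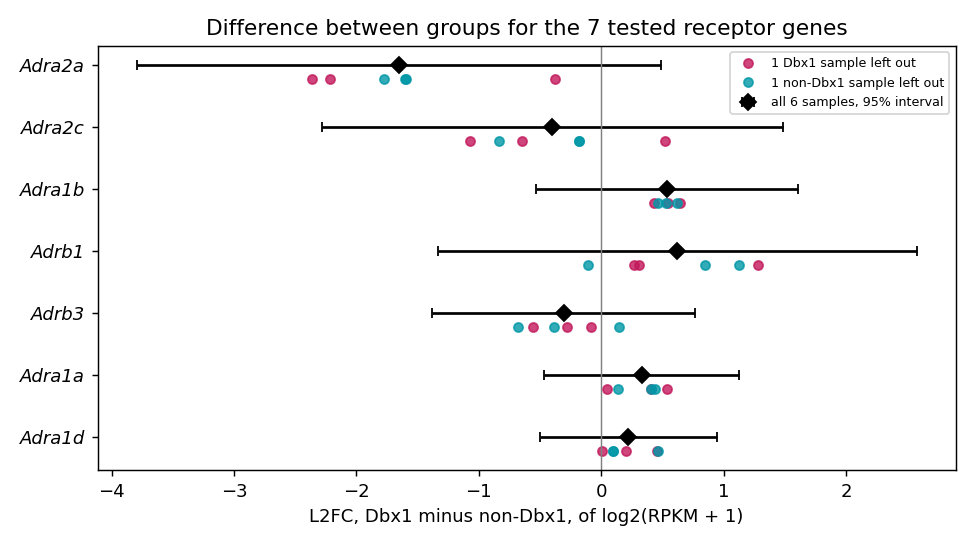
L2FC of the 7 tested members with its 95% interval from limma (black, all 6 samples) and the L2FC with each sample left out in turn (coloured points). Every interval spans 0, and the points of Adra1b lie between 0.43 and 0.64, while those of Adra2a range from −2.37 to −0.38.

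Across the family, L2FC was above 0 for 4 tested members, the 3 alpha-1 genes and Adrb1, where 50.8% of all tested genes were above 0. It was below 0 for Adra2a, Adra2c and Adrb3. The median was 0.22 over the 7 genes and 0.01 over all 17614 tested genes. None had an FDR under 0.1 or an unadjusted p under 0.05, where 1 gene (D930028M14Rik, 0.00568%) and 5.2% of all tested genes did, with 2.73% higher in Dbx1 and 2.48% higher in non-Dbx1. Limma-voom on the recovered reads gave no member an FDR under 0.1 either. The FDR of the members ran from 0.924 to 0.976. A p that misses the threshold does not show that the levels were equal. The interval of each tested member but Adra1d reached beyond a difference of 1 on the log2 scale. Adra1d was at most 0.861 RPKM, where the pseudocount of 1 narrows the interval. With a pseudocount of 0.1 its interval ran from −1.85 to 3.65.

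Of 58 genes of receptor signalling and catecholamine metabolism, 52 could be tested and none had an FDR under 0.1. Unadjusted p was under 0.05 for Grk3 and Pnmt. The median L2FC was 0.03. In 5 of the 52 (9.62%) the groups did not overlap, a share near the 10.6% of all tested genes. In these 5 the non-Dbx1 samples were higher, where 5.24% of all tested genes did not overlap in that direction. Whether 5 of 52 exceeds that share was not tested. These 5 were Gnaq, Adcy5, Adcy9, Grk3 and Pnmt, named after their values were seen except for Grk3 and Pnmt.

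**Figure D4:**
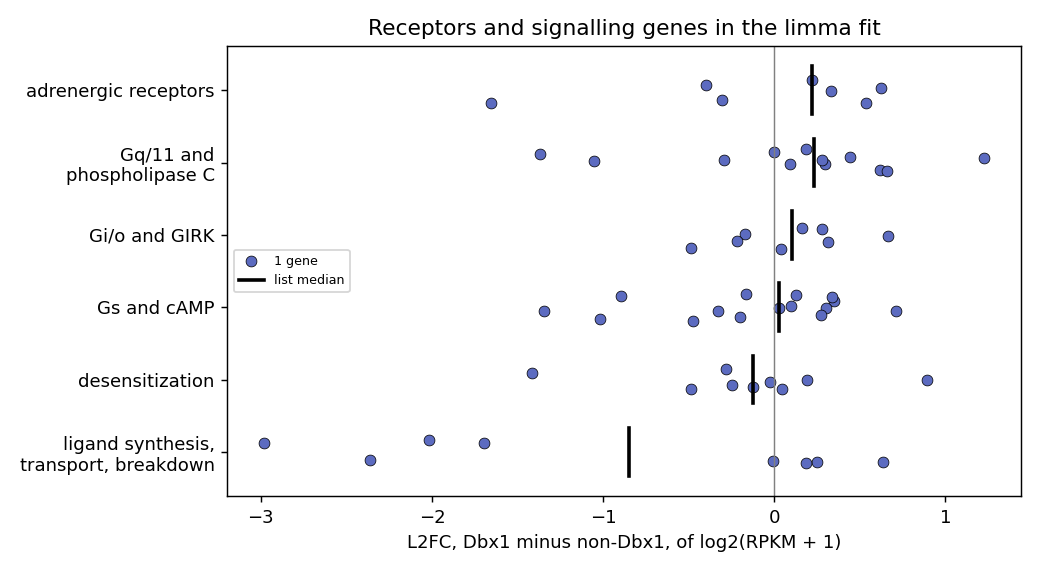
L2FC of each tested gene (points) of the adrenergic receptors and of 5 lists of signalling and metabolic genes, with the median of each list as a black line. The points of each list lie on both sides of 0.

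For the alpha-1 arm, 12 of the 14 genes of Gq proteins, phospholipase C, IP3 receptors and protein kinase C were tested, 8 with L2FC above 0 and 4 below, with a median of 0.23. Gna11, a Gq family alpha subunit, was the highest at 40.0 RPKM and Itpr3, an IP3 receptor, the lowest at 0.0206 RPKM by the mean of 6 samples. Gnaq, the other main Gq alpha subunit, measured 18.8, 19.8 and 19.3 RPKM for the Dbx1 samples against 25.6, 23.2 and 22.8 for the non-Dbx1 samples (difference −0.29 ± 0.240 SE on the log2 scale, limma FDR = 0.949).

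For the alpha-2 arm, 8 of 9 genes of Gi and Go proteins and GIRK channels were tested, with 5 above 0, 3 below 0 and a median of 0.10. The Gi subunit gene Gnai1 was the highest, at 78.6 RPKM. The GIRK subunit gene Kcnj5 had no reads in any sample.

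For the beta arm, 15 of 16 genes of Gs, adenylyl cyclases and protein kinase A were tested, with 8 above 0, 7 below 0 and a median of 0.03. The protein kinase A regulatory subunit gene Prkar1a was the highest, at 129 RPKM, and the cyclase gene Adcy4 the lowest, at 0.0788 RPKM. Adcy5 measured 6.55, 3.15 and 2.75 RPKM for the Dbx1 samples against 8.15, 6.92 and 9.41 for the non-Dbx1 samples, and Adcy9 measured 0.226, 1.88 and 1.65 and 3.66, 2.48 and 3.77. Both cyclase genes were higher in each non-Dbx1 sample, with L2FC of −0.89 and −1.02 (limma FDR = 0.913 and 0.924).

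All 9 genes of receptor desensitization were tested, 3 with L2FC above 0 and 6 below, with a median of −0.12. Rgs4, a regulator that shortens G protein signalling, was the highest at 41.3 RPKM and the receptor kinase gene Grk5 the lowest at 1.33 RPKM. Grk3, a G protein-coupled receptor kinase that phosphorylates agonist-bound adrenergic receptors, measured 1.84, 4.55 and 3.84 RPKM for the Dbx1 samples against 11.7, 13.5 and 6.87 for the non-Dbx1 samples. Each non-Dbx1 sample was above each Dbx1 sample. L2FC measured −1.42 (SE 0.468, limma FDR = 0.870), which did not pass the threshold.

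Among genes that make, store and clear the ligands, Th, Ddc, Gch1, Dbh, Pnmt, Slc18a2, Slc6a2 and Maoa were highest in non-Dbx1 replicate 2. In that sample Dbh, which converts dopamine to noradrenaline, measured 339 RPKM, and Th, the rate-limiting enzyme of catecholamine synthesis, measured 114 RPKM. Dbh was 11.8 in non-Dbx1 replicate 1 and 0 in the other 4 samples, and Th was at most 3.86 RPKM outside replicate 2. The vesicular transporter gene Slc18a2 measured 171 RPKM in non-Dbx1 replicate 2 and 1.65 to 9.41 elsewhere. The noradrenaline transporter gene Slc6a2 measured 12.3 RPKM there and had no reads in the other 5 samples.

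Ddc measured 37.6 RPKM in non-Dbx1 replicate 2 and 0 to 0.690 elsewhere. For Gch1, which makes the cofactor of tyrosine hydroxylase, the value was 38.5 there and 0 to 8.60 elsewhere. The degrading enzyme gene Maoa was also highest there, at 68.8 RPKM against 3.19 to 31.5. Maob ran from 0 to 7.14 RPKM and had no reads in non-Dbx1 replicate 2 or in Dbx1 replicate 3.

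Pnmt, which converts noradrenaline to adrenaline, measured 4.94, 2.66 and 3.08 RPKM for the Dbx1 samples against 20.9, 192 and 9.40 for the non-Dbx1 samples. It was the ligand gene whose groups did not overlap (L2FC −2.98, standard error 0.929, limma FDR = 0.864). Of the 8 tested ligand genes, 3 had an L2FC above 0 and 5 below, with a median of −0.85, and of −0.02 without non-Dbx1 replicate 2, a check chosen after seeing the data. The ligand median stayed below 0 with any single sample left out, from −1.65 to −0.02. Leaving out single samples turned the sign of the medians of the Gi and Go, the Gs and the desensitization lists.

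Beside this pattern, the receptor values of non-Dbx1 replicate 2 were the highest of the 6 samples for Adra2a and Adrb3 and the lowest for Adra1b, Adra1a (0 RPKM) and Adrb1 (0 RPKM). Adra2a measured 19.1 RPKM there and 18.8 in non-Dbx1 replicate 1, which had a summed catecholaminergic marker RPKM of 55.6. The part of these neurons in the receptor values of that sample was not tested.

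**Figure D5:**
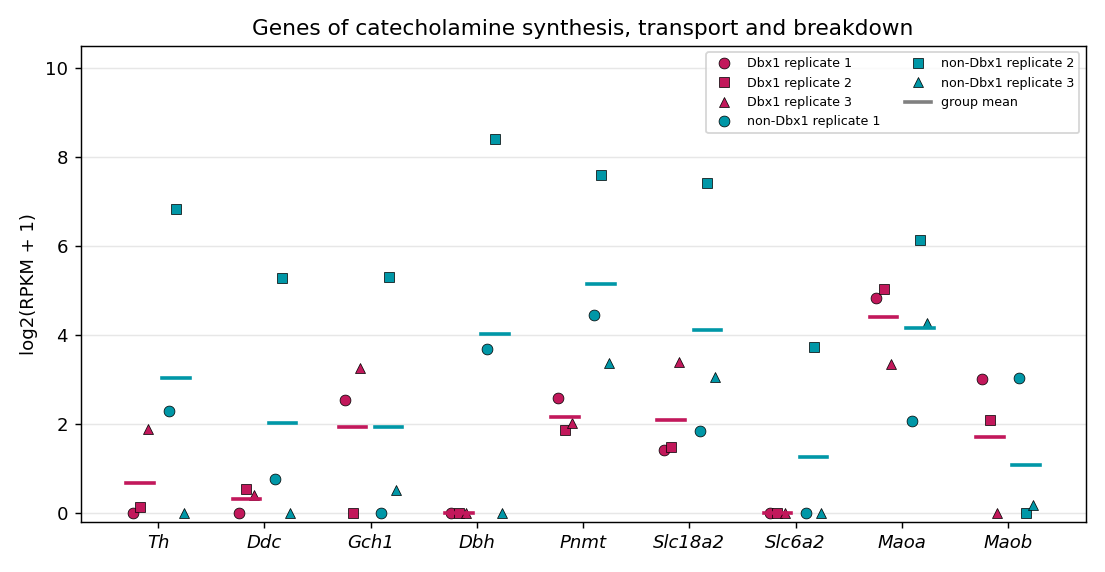
RPKM of 9 genes of catecholamine synthesis, transport and breakdown on a log2(RPKM + 1) axis, with 1 symbol per sample and a line at the mean of each group of 3. Non-Dbx1 replicate 2 (blue-green squares) is the highest sample for every gene from Th to Maoa. Dbh lies at 0 in all 3 Dbx1 samples and in non-Dbx1 replicate 3.

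For the 2 members with reads in all 6 samples, the genes with the most similar profile were found by the root mean square (RMS) difference between centred log2(RPKM + 1) values over the 6 samples, among 13162 other genes. For Adra1b these were Eno2, Polr2e and Ndufc1, with RMS differences of 0.0626, 0.0708 and 0.0935, where the median over the 13162 genes was 0.644. Eno2, a neuronal enolase gene and 1 of the listed neuronal markers, measured 65.7, 72.1 and 59.1 RPKM for the Dbx1 samples against 44.0, 39.7 and 54.8 for the non-Dbx1 samples. For Adra2c they were Gm43662, Rce1 and Tbc1d5, with RMS differences of 0.239, 0.281 and 0.319 against a median of 1.21. With 6 samples and this many genes, close profiles are a description only.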

How the data were processed

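RNA was sequenced from 3 Dbx1 and 3 non-Dbx1 samples of 15 neurons. The authors amplified cDNA with SMART-Seq, aligned single-end reads to mm10 with TopHat2, counted them by gene name and without strand with HTSeq, and deposited RPKM per gene and sample, not scaled between samples. The Ensembl release behind the exon lengths is not given in the sources used here.

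Total reads on genes and reads per gene were recovered as the whole numbers (within 0.0001 reads) that give the RPKM values. Where no GENCODE vM21 (GRCm38) exon length gave whole reads, the smallest such numbers were taken ("at least"). For 4193 genes the length that gave whole reads was the sum of distinct exons, which counts overlapping exons of isoforms more than once, and in none of them did the merged length also give whole reads. This lowers the RPKM of genes with many isoforms. GENCODE matched 47287 names (95.4%).

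For their own comparison the authors used DESeq2. Here log2(RPKM + 1) was compared by a two-sided limma test (limma 3.58.1 with trend, R 4.3.3) on 17614 genes that had reads in 3 or more samples, and the FDR (Benjamini-Hochberg) was called at 0.1. Single values used exact two-sided permutation tests (Python 3.11.15, scipy 1.17.1). The limma step was tested on simulated data. Over the tested genes, samples correlated by 0.826 to 0.886 within groups and by 0.821 to 0.890 between groups, and all were kept.

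The members and lists were chosen with earlier results of these data known. Named genes are the 8 members, of each list the highest, the lowest and any with unadjusted p under 0.05, the ligand genes, defining markers at 0, genes with FDR under 0.1, and the 3 closest profiles of members with reads in all samples. A listed gene that enters the counts is not reported here by name.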

Additional observations from a re-analysis of the deposited data

How the results depend on the processing

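The L2FC of Adra1a, Adra1b, Adra1d and Adra2a kept its direction under every alternative run. That of Adra2c ran from −1.08 to 0.52 when 1 sample was left out, that of Adrb1 from −0.11 to 1.28 and that of Adrb3 from −0.68 to 0.15. No member had an FDR under 0.1 under any alternative, the lowest being 0.784. Limma-voom on recovered reads, with no pseudocount of 1 to damp low values, gave an L2FC of −3.59 for Adra2a, 2.58 for Adra1a and 2.18 for Adrb1. Each of these genes had a sample without reads, Dbx1 replicate 2 for Adra2a and non-Dbx1 replicate 2 for Adra1a and Adrb1. The size of these L2FC therefore rests largely on how a count of 0 is treated. The summed beta difference was −0.0129 with a pseudocount of 0.1, −0.17 with merged exon length, and ran from −0.25 to 0.81 when 1 sample was left out, and that of all 8 genes from −0.57 to 0.00195, the latter without Dbx1 replicate 2. No pair of members passed with a pseudocount of 0.1 or with merged exon length (chosen after seeing the data), where again no pair could pass on its own.

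Over all genes, the count with FDR under 0.1 and higher in non-Dbx1 was 1, and 0 with a pseudocount of 0.1, with all genes above 0 in at least 1 sample and with limma-voom, 3 without the trend, and 0 to 1 when 1 sample was left out (1 only without Dbx1 replicate 1). The count higher in Dbx1 was 0, and 0 to 1 when 1 sample was left out (1 without non-Dbx1 replicate 2). Samples with the same replicate number showed no shared deviation over the tested genes (correlations of −0.107, 0.025 and −0.052). With groups of 3 this does not exclude a pairing by number with a smaller effect. With the replicate number as a block, 0 genes had an FDR under 0.1 in either direction, 440 and 379 had an unadjusted p under 0.05 (480 and 436 without it), and the L2FC of Adra2a had an FDR of 0.980.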
